A study of Mus musculus with 4 samples.

Results

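The telomere side of mouse chromosome 14 was examined as the stretch above 57 Mb on the mm9 build, seen from 4 4C viewpoints in the Tcra/Tcrd locus. Its members were the HindIII fragments with a midpoint above 57 Mb that had at least 1 read in any of 16 libraries, and there were 14606 of them, of 26314 such fragments on chromosome 14 and 506753 in all. They covered 68.2 Mb up to the last listed base, 125194864, and were summed in 137 bins of 500 kb, the last of which held 195 kb. The 4 viewpoint fragments lie at chr14:54677060-54677623 (INT1), chr14:54680988-54683873 (INT2), chr14:54763263-54765182 (Ed) and chr14:54769627-54773311 (TEA), so the side began 2.23 to 2.32 Mb away from them.

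In 4C-seq, chromatin is crosslinked, cut and religated, and inverse PCR from 1 chosen fragment, the viewpoint, amplifies whatever fragments were joined to it. The number of joined fragments is high beside the viewpoint and falls with distance along the same chromosome, and contacts far along the chromosome and with other chromosomes are sparse and largely private to each cell sampled. The Tcra/Tcrd locus encodes 2 T cell receptor chains, the δ and α chains, and its folding near the enhancers is studied because distant gene segments must meet before V(D)J recombination. Here TEA is the T early alpha element and Ed the δ enhancer, and the labels do not explain INT1 and INT2. Mouse chromosomes have their centromere at the low-coordinate end, so the stretch above 57 Mb reaches the telomere of the long arm. In RefSeq's annotation of the later GRCm38.p6 assembly, Gata4, a heart transcription factor, Rb1, a regulator of the cell cycle, and Ednrb, an endothelin receptor, lie on this arm. No annotation of mm9 was used, so no bin or fragment was assigned a gene, and no sequence is given.

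The DN samples were CD4- CD8- thymocytes of C57BL/6 Rag2-/- mice, taken from litters aged 3 weeks, whose cells cannot start V(D)J recombination. The B samples were naive B splenocytes of wild-type C57BL/6 mice, for which neither age nor isolation is given separately, so genotype and tissue differed together with cell type. There were 2 samples of either kind, and from every sample 4 libraries were made, 1 per viewpoint. The labels do not say whether the samples of a cell type came from separate litters, so p-values measure the spread between these samples.

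The libraries held 1220738 to 17287420 mapped reads, and 27722 to 476159 of those reads fell on the telomere side. A fragment with at least 1 read in a library is called captured. A library captured 738 to 3857 fragments of the side, 5.05% to 26.4% of the 14606, and 7.15% to 33.7% of those captured had a single read. Over its 4 viewpoints, DN replicate 1 captured 6217 of the side's fragments, DN replicate 2 captured 4520, B replicate 1 captured 7521 and B replicate 2 captured 8019. DN replicate 2 therefore captured the fewest. Per the file headers there were 3 sequencing folders, of which the B samples share 1 and the DN samples have 1 apiece, so the cell type and the folder cannot be told apart.

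The first question was whether the side was contacted above the level of the rest of the genome. Reads were scaled as RPM, the reads of a fragment relative to all mapped reads of its library, and the RPM per Mb on the side was divided by the mean RPM per Mb on the other 18 autosomes of the same library. A ratio of 1 therefore means the density of an unlinked chromosome. From TEA the ratio was 1.14 in DN replicate 1, 1.47 in DN replicate 2, 1.15 in B replicate 1 and 1.11 in B replicate 2. From INT1 the 4 samples, in the same order, were at 1.18, 1.57, 1.09 and 1.16. From INT2 they were at 1.16, 1.31, 1.12 and 1.14. The density lay slightly above that of unlinked chromosomes in all of these libraries, and DN replicate 2 was the highest sample from each of these viewpoints. From Ed the ratios were 1.09, 2.14, 1.13 and 0.995, so B replicate 2 was the single library of the 16 at or below 1. Averaged over the viewpoints on the log2 scale the side stood at 1.14, 1.60, 1.12 and 1.10, above 1 in 4 of 4 samples (exact sign-flip test against 0 on the log2 scale, two-sided, p = 0.125, the smallest p that 4 samples allow). Whole other autosomes ranged from 0.743 to 1.53 by RPM, and at least 1 of the 18 lay above the telomere side in 7 of 16 libraries, with 6 in B replicate 2 from Ed.

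Counting each captured fragment once, which takes no account of how strongly it was amplified, gave a similar picture. The captured fragments per Mb over those of the other autosomes were, in the same order of samples, 1.13, 1.23, 1.09 and 1.13 from TEA and 1.18, 1.47, 1.11 and 1.19 from INT1. From INT2 they were 1.19, 1.37, 1.16 and 1.16, and from Ed 1.04, 1.31, 1.18 and 1.09. The ratio was above 1 in all 16 libraries. Whole other autosomes ranged from 0.873 to 1.18 on this scale. In 14 libraries 0 of the 18 autosomes lay above the telomere side, while 4 did in DN replicate 1 from Ed and 1 did in B replicate 2 from Ed. The sample means over viewpoints were 1.13, 1.34, 1.14 and 1.14, again above 1 in 4 of 4 samples (exact sign-flip test, two-sided, p = 0.125).

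The side also had more listed HindIII fragments per Mb than the other autosomes. Listing itself requires a read in any of the 16 libraries, so this is not the density of HindIII sites. It had 214 listed fragments per Mb against 195, a ratio of 1.10, with a median length of 2852 bp against 2957 bp. Divided by the listed fragments in place of Mb, the captured ratio of the sample means fell to 1.03 in DN replicate 1, 1.23 in DN replicate 2, 1.04 in B replicate 1 and 1.04 in B replicate 2. On this scale 3 libraries lay below 1: B replicate 1 from TEA at 0.996, DN replicate 1 from Ed at 0.945 and B replicate 2 from Ed at 0.992. Per listed fragment, the 3 samples other than DN replicate 2 thus lay at 1.03 to 1.04. Since listed fragments are those captured in any of the same libraries, this division can also take out part of a contact excess.

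**Figure D1:**
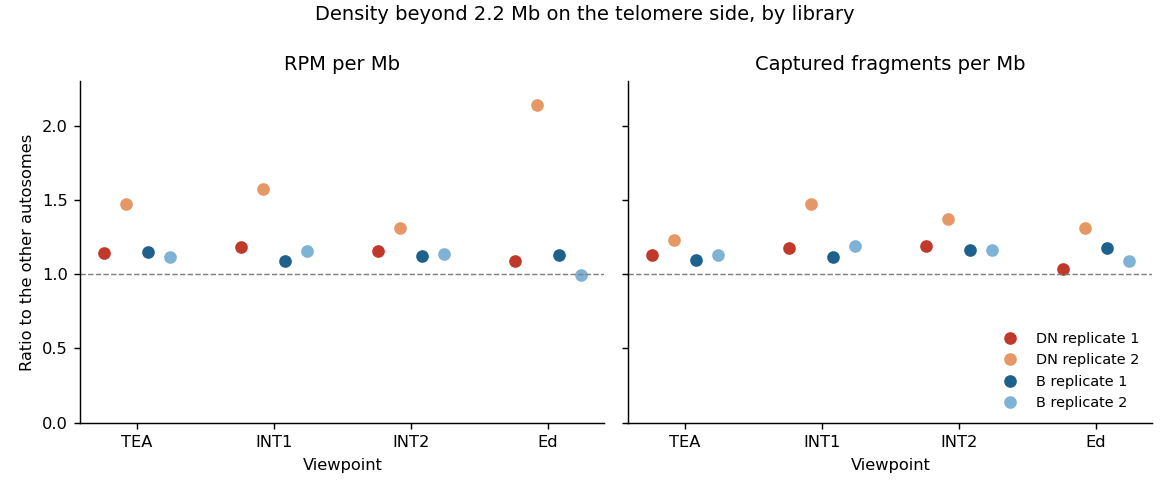
Density on the telomere side over the mean density of the other autosomes (vertical axis, a ratio with no unit) for each viewpoint (horizontal axis); each point is 1 library, coloured by sample, for RPM per Mb (left) and captured fragments per Mb (right), and the dashed line marks 1. DN replicate 2 is the highest sample at each viewpoint, at 2.14 for RPM from Ed, and the other 3 samples lie between 0.995 and 1.19.

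The excess over unlinked chromosomes was largest next to the locus and faded along the arm. Between 57 and 60 Mb the captured ratio, averaged over viewpoints, was 1.52 in DN replicate 1, 1.79 in DN replicate 2, 1.38 in B replicate 1 and 1.36 in B replicate 2. All 16 libraries were above 1 there, from 1.24 to 2.06. The mean over the 4 samples was 1.26 from 60 to 70 Mb, 1.27 from 70 to 80 Mb and 1.24 from 80 to 90 Mb. It was 1.11 from 90 to 100 Mb, 1.11 from 100 to 110 Mb, 1.06 from 110 to 120 Mb and 1.08 from 120 Mb to the end. The mean was thus lower in the bands after the first, and lower again in those from 90 Mb on. These means do not place a drop at a band edge, since single bins within the bands were uneven. From 110 to 120 Mb 12 of 16 libraries were above 1, and likewise 12 beyond 120 Mb.

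RPM gave a steeper fall. The mean ratio was 1.73 from 57 to 60 Mb, 1.37 from 60 to 70 Mb, 1.43 from 70 to 80 Mb and 1.28 from 80 to 90 Mb. It was then 0.933 from 90 to 100 Mb, below the unlinked chromosomes in all 4 samples (0.942, 0.949, 0.939 and 0.901), and above 1 in 5 of 16 libraries. From 100 to 110 Mb it stood at 1.09, from 110 to 120 Mb at 1.02 and beyond 120 Mb at 0.929. The captured ratio of the band from 90 to 100 Mb was above 1 in 16 of 16 libraries, so in this band a density of captured fragments above the autosomal mean went with a density of reads below it. In DN replicate 2 the RPM ratio was at 2.59, 1.84, 2.02 and 1.69 in the first 4 bands and at 0.949 in the fifth, against 1.54, 1.23, 1.28, 1.19 and 0.942 in DN replicate 1. The samples thus nearly met in the band from 90 to 100 Mb. Farther out DN replicate 2 was again the highest, at 1.21 against 1.05 to 1.07 in the other samples from 100 to 110 Mb and at 1.18 against 0.930 to 1.03 from 110 to 120 Mb, and beyond 120 Mb it stood at 0.975 beside 0.985 in DN replicate 1.

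**Figure D2:**
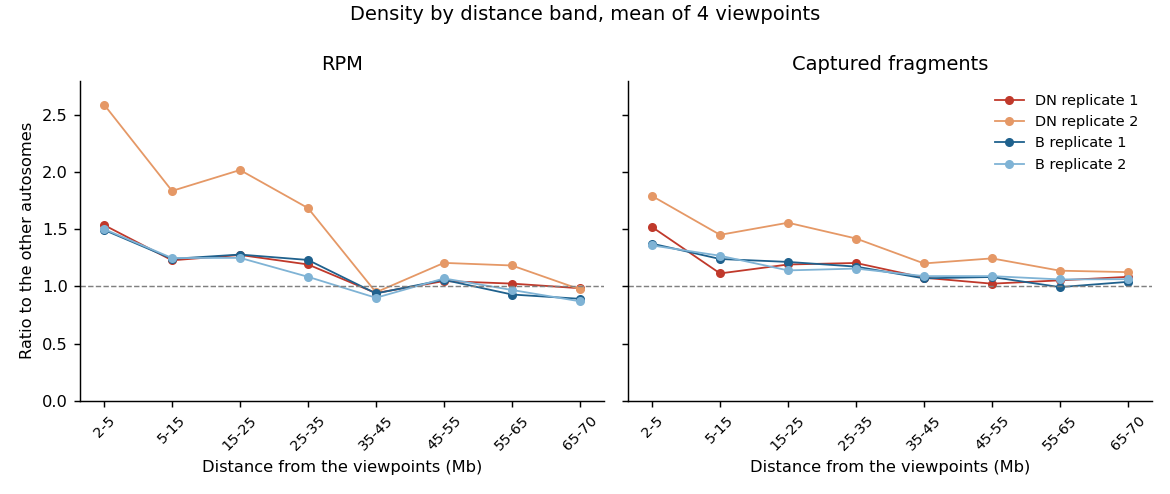
Density over the mean of the other autosomes (vertical axis, a ratio with no unit) in 8 bands of distance from the viewpoints (horizontal axis, Mb), for RPM (left) and captured fragments (right); each line is 1 sample, averaged over its 4 viewpoints, and the dashed line marks 1. The nearest band is the highest in each sample, from 1.50 to 2.59 for RPM, and DN replicate 2 lies above the others over the first 4 bands.

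The fall with distance was also measured as a slope of log2(RPM ratio + 0.1) on log2 distance over the 137 bins. The slope was -0.16 in DN replicate 1, -0.33 in DN replicate 2, -0.15 in B replicate 1 and -0.18 in B replicate 2, and it was negative in 16 of 16 libraries. The slopes of the cell types overlapped (DN minus B -0.08, exact permutation test, two-sided, p = 0.667, the smallest possible being 0.333). Without DN replicate 2 the difference was 0.0049, so its sign rested on that sample. Slopes of the captured ratio were shallower, at -0.09, -0.15, -0.10 and -0.09.

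Within this slope the bins were uneven. Bin ratios are given as the back-transformed mean of log2(ratio + 0.1) over viewpoints and samples, with the 0.1 taken off again. The captured ratio ran from 0.644 to 1.70 with a median of 1.12, against a median of 0.891 for the 4568 bins of the other autosomes. On the RPM scale the bins ran from 0.488 to 2.69 with a median of 0.941, against 0.740. Of the 137 bins, 107 (78.1%) lay above the autosomal mean in at least 8 of 16 libraries by captured fragments, against 40.1% of the other bins, and 60 (43.8%) did so in at least 12 libraries, against 19.1%. Only 3 bins (2.19%) did so in all 16 libraries, against 3.39% elsewhere, so bins above the mean in every library were no more frequent on the side. Across bins, the captured ratio correlated with the number of listed fragments at r = 0.56 (137 bins) and at r = 0.71 on the other autosomes (4568 bins). A bin's listed fragments are those captured in any of the same libraries, so a positive correlation is partly built in. These bins share libraries and depth, and the figures are descriptive.

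The most contacted bin was the first, 57 to 57.5 Mb. Its captured ratio was 1.80 in DN replicate 1, 2.08 in DN replicate 2, 1.61 in B replicate 1 and 1.39 in B replicate 2, and its RPM ratio was 2.61, 5.98, 1.93 and 1.70. Both DN samples lay above both B samples on either scale. The next highest by captured fragments were 57.5 to 58.0 Mb at 1.66, 92.0 to 92.5 Mb at 1.64, 58.0 to 58.5 Mb at 1.61 and 84.0 to 84.5 Mb at 1.58. The bin at 92.0 Mb was above 1 in 16 of 16 libraries by captured fragments, from 1.04 to 3.14, although it lies 37.5 Mb from the locus. Its RPM ratio was only 0.999. The highest bins by RPM after the first were 58.0 to 58.5 Mb (1.68), 65.5 to 66.0 Mb (1.66), 61.5 to 62.0 Mb (1.63) and 70.5 to 71.0 Mb (1.61).

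The least contacted bins lay mostly in the distal part. By captured fragments they were 105.0 to 105.5 Mb at 0.644, 117.5 to 118.0 Mb at 0.649, 121.5 to 122.0 Mb at 0.747, 99.5 to 100 Mb at 0.814 and 72.5 to 73.0 Mb at 0.822. By RPM they were 91.0 to 91.5 Mb at 0.488, 121.5 to 122.0 Mb at 0.509, 117.5 to 118.0 Mb at 0.514, 123.5 to 124.0 Mb at 0.528 and 101.5 to 102.0 Mb at 0.531. The bins at 117.5 and 121.5 Mb were thus low on both scales.

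Bins above the autosomal mean in all 4 samples, by captured fragments, numbered 56 of 137 (40.9%), against 18.9% on the other autosomes, and formed 24 runs of adjacent bins. They made up 39 of the 66 bins before 90 Mb (59.1%) and 17 of the 71 bins from 90 Mb on (23.9%). The longest run covered 64.0 to 67.0 Mb in 6 bins with a mean captured ratio of 1.30. Runs of 5 bins covered 61.0 to 63.5 Mb at 1.39 and 84.0 to 86.5 Mb at 1.27, and the run of 4 bins next to the locus, 57 to 59.0 Mb, had 1.53. Between these runs lay stretches in which each bin had at least 1 sample at or below the autosomal mean, and the 6 longest of them had mean captured ratios of 0.913 to 1.09. From 67.0 to 70.5 Mb 7 bins in a row had a mean captured ratio of 1.01, and from 114.5 to 122.0 Mb 15 bins in a row had 0.913 and an RPM ratio of 0.767.

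**Figure D3:**
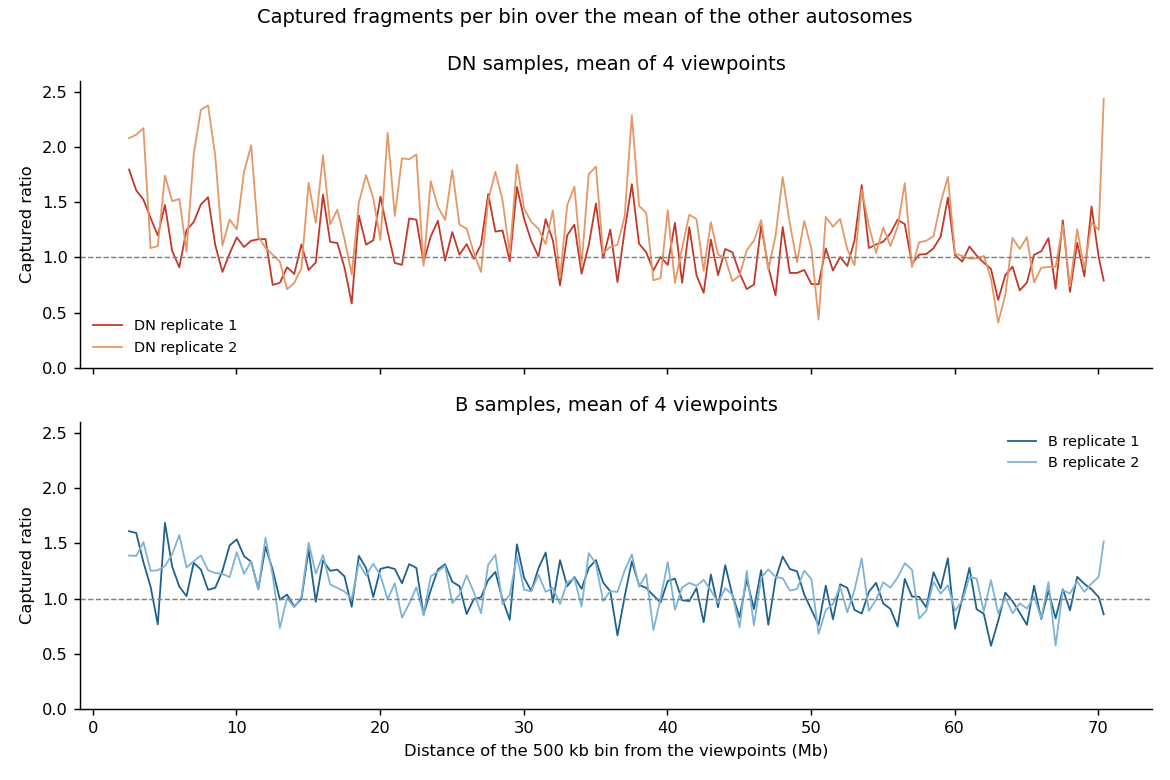
Captured fragments per 500 kb bin over the mean of the other autosomes (vertical axis, a ratio with no unit) against distance from the viewpoints (horizontal axis, Mb), for the DN samples (top) and the B samples (bottom); each line is 1 sample averaged over its 4 viewpoints. The first bin is at 1.39 to 2.08, stretches above and below 1 alternate, and DN replicate 2 swings more widely than the other samples.

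The bin profiles of the samples resembled each other moderately. Over the 137 bins, viewpoint means of captured fragments correlated at r = 0.61 between the DN replicates, at 0.46 between the B replicates and at 0.44 to 0.57 between a DN and a B sample. Single libraries correlated less, with a median r of 0.37 for replicates of 1 cell type and viewpoint and 0.30 for the same viewpoint in the other cell type. The points share the fragment content of each bin, and these values are descriptive.

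The second question was whether thymocytes and B cells contacted the side differently. For the side as a whole, 2 samples against 2 could not pass a test at 0.05. The RPM ratio, averaged over viewpoints, was 0.28 higher in DN than in B on the log2 scale, a 1.22-fold difference (DN 0.43 ± 0.34, B 0.15 ± 0.02, SD, n = 2 each; exact permutation test, two-sided, p = 0.333, the smallest possible). The excess rested on DN replicate 2: without it DN minus B was 0.04, and without DN replicate 1 it was 0.52. By captured fragments the difference was 0.12 (p = 1.0, exact permutation test), with DN replicate 1 at 1.13 below both B samples at 1.14.

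The denominator decided the sign. Set against the density of chromosome 14 beyond 1 Mb from the viewpoints, in place of the other autosomes, the side stood at 0.854 and 0.906 in DN and at 0.908 and 0.903 in B, so that DN minus B was -0.04 on the log2 scale (exact permutation test, two-sided, p = 0.667). As a share of all chromosome 14 reads outside the viewpoint, the side took 16.4% to 17.8% in DN replicate 1 and 9.87% to 21.4% in DN replicate 2. It took 30.4% to 41.5% in B replicate 1 and 28.8% to 39.4% in B replicate 2, with no overlap between the cell types. The 4 libraries of a sample are not replicates, so this and the next shares set 2 samples against 2 and were not tested. Chromosome 14 itself, outside the viewpoint, took 11.4% to 28.6% of all reads in DN and 5.96% to 8.97% in B. Of chromosome 14 reads beyond 1 Mb the side took 43.8% to 58.9% in DN and 48.3% to 53.2% in B, which overlap. The lower share of the side in DN therefore went with a larger share of chromosome 14 reads within 1 Mb of the viewpoints.

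By distance, the exact permutation test could not separate the cell types in any band, since 2 samples against 2 cannot go below p = 0.333, and the order of the samples is given as a description. Both DN samples lay above both B samples from 57 to 60 Mb by RPM (1.54 and 2.59 against 1.50 and 1.50) and by captured fragments (1.52 and 1.79 against 1.38 and 1.36). They did so on both scales in the band beyond 120 Mb as well, and on a single scale in the bands from 80 to 90 Mb (captured), 90 to 100 Mb (RPM) and 110 to 120 Mb (RPM). From 60 to 70 Mb DN replicate 1, at a captured ratio of 1.11, was below both B samples at 1.24 and 1.27.

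Bin by bin, 0 of 137 bins passed limma at an adjusted p under 0.05 (Benjamini-Hochberg over 4808 autosomal bins) by RPM, where 0.0416% of all bins were called. At an unadjusted p under 0.05 there were 8, 5 higher and 3 lower in DN, with 7.26% of all bins. By edgeR's quasi-likelihood test on recovered reads of INT1, INT2 and Ed, 0 bins passed and 4 had an unadjusted p under 0.05. The bin with the smallest p was 87.0 to 87.5 Mb, where the RPM ratio was 0.271 and 0.389 in DN and 1.47 and 1.03 in B. The groups did not overlap there, but the difference of -1.64 on the log2 scale did not pass (SE 0.47, limma adjusted p = 0.671). In the captured ratio the same bin stood at 0.747 and 0.814 in DN and at 1.35 and 0.951 in B.

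By captured fragments 0 of 137 bins passed limma as well, again beside 0.0416% of all bins, and 16 had an unadjusted p under 0.05 (10.4% of all bins). Of those 16, 11 were higher in DN and 5 were higher in B. The smallest p belonged to 62.5 to 63.0 Mb, with ratios of 1.55 and 2.38 in DN and 1.08 and 1.26 in B. Its difference was 0.68 on the log2 scale (SE 0.19, limma adjusted p = 0.300). The adjacent bin at 62.0 Mb differed by 0.46 in the same direction (limma adjusted p = 0.436). By RPM these 2 bins were also among the 8, at 0.95 and 0.79.

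DN lay above B in the captured ratio in 88 of 137 bins (64.2%), against 41.9% of the bins of the other autosomes. By RPM DN lay above B in 61 bins (44.5%), against 29.8%. The median bin of all autosomes shifted by -0.05 (captured) and -0.23 (RPM) between DN and B, and the side's median differences were 0.10 and -0.05. Both DN samples exceeded both B samples in 40 bins by captured fragments (29.2%, background 18.2%) and in 26 by RPM (19.0%, background 9.8%). Both B samples exceeded both DN samples in 17 bins by captured fragments (12.4%, background 24.5%) and in 30 by RPM (21.9%, background 28.5%). The direction of these counts followed the scaling, which moves all bins of a library alike. Set against chromosome 14 beyond 1 Mb, DN lay above B in 56 bins by captured fragments (40.9%) and in 37 by RPM (27.0%). Set against the median bin of the other autosomes the counts were 88 and 87, and with TMM factors, which centre the libraries on their common bins, 89 and 82. The shares of the other autosomes under these scalings were not taken. The counts therefore do not say how the side stood to the other bins there.

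The counts also depended on the DN samples. Without DN replicate 1, the side's median difference was -0.09 by RPM and 0.19 by captured fragments. DN then lay above B in 61 and 98 of 137 bins. Without DN replicate 2 the medians were -0.002 and -0.0007, with 67 and 68 bins. Without B replicate 1 they were -0.03 and 0.08, with 62 and 79 bins, and without B replicate 2 -0.05 and 0.09, with 66 and 86. DN replicate 2 was the sample with the fewest captured fragments on the side, but its libraries were not all the shallowest. It had 7457367 mapped reads from INT2 and 3227300 from Ed, against 1907814 and 1220738 in DN replicate 1. From TEA it had 9988342 against 2037531, and from INT1 fewer, 4846919 against 15046827. The part of depth in the counts above was not tested.

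**Figure D4:**
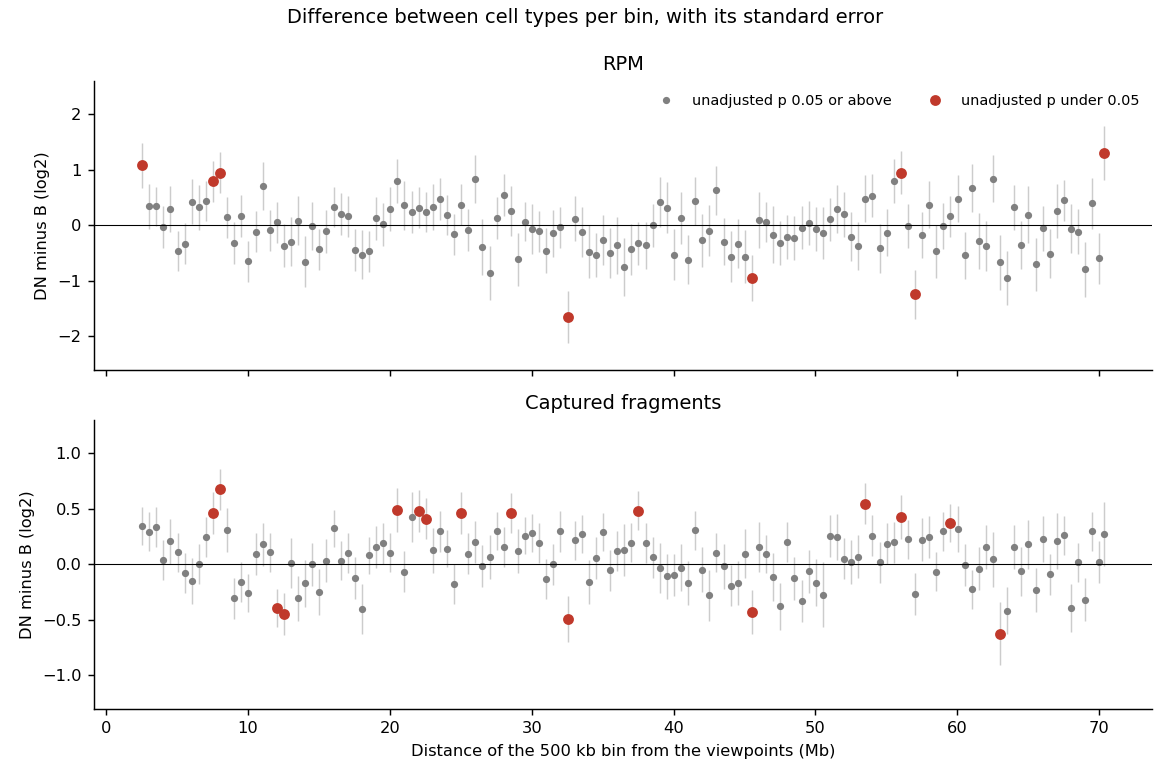
DN minus B difference (vertical axis, log2 of the ratio + 0.1, mean of 4 viewpoints) per 500 kb bin against distance from the viewpoints (horizontal axis, Mb), for RPM (top) and captured fragments (bottom, on a narrower scale); points are bins, bars 1 standard error of limma, and red marks an unadjusted p under 0.05. There are 8 red points for RPM and 16 for captured fragments, and 0 bins passed after adjustment.

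From each viewpoint taken alone, 0 of 137 bins differed between DN and B by limma at an adjusted p under 0.05, by RPM and by captured fragments. The share called among all 4808 bins was 0.0416% for TEA and 0% for INT1, INT2 and Ed by RPM, and 0.0208% for INT2 and 0% for TEA, INT1 and Ed by captured fragments. At an unadjusted p under 0.05 there were 8 bins for TEA, 3 for INT1, 16 for INT2 and 6 for Ed by RPM, and 11, 14, 18 and 7 by captured fragments. Without DN replicate 1, DN lay above B by RPM in 74 (TEA), 91 (INT1), 57 (INT2) and 52 (Ed) of 137 bins. With all samples the counts were 73, 86, 59 and 57. A test of whether the cell type difference varied with the viewpoint called 0 bins on either scale (0% of all bins), with 12 bins by RPM and 6 by captured fragments at an unadjusted p under 0.05 in limma. The share of all bins at an unadjusted p under 0.05 was taken only for the viewpoint means. The unadjusted counts of the other tests, here, above and below, are therefore no result about the side.

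The third question was whether the 4 viewpoints, which lie close together, differed in how they saw the side. Over the whole side no pair of viewpoints differed by RPM. Across the 6 pairs the mean log2 difference over the 4 samples ran from -0.11 to 0.07, and the exact sign-flip tests gave p from 0.5 to 1.0. By captured fragments TEA lay below INT1 by 0.11 ± 0.10 and below INT2 by 0.09 ± 0.05 (log2, SD, n = 4), in 4 of 4 samples each. Both reached the smallest possible exact p of 0.125, or 0.375 after Benjamini-Hochberg adjustment over the 6 pairs. TEA and Ed, with a mean difference of -0.01 that ran from -0.11 to 0.12, were in no order.

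A few single bins separated the viewpoints by RPM, no larger a share on the side than over all bins. In a limma fit over the 16 libraries with the sample as a block, 5 of 137 bins (background 4.28%) had an adjusted p under 0.05 in the F test over viewpoints, so the side did not stand out by its count. By pairs, TEA differed from Ed in 2 bins, INT1 from Ed in 4 and INT2 from Ed in 3, and the pairs without Ed in 0, with 0 to 6 bins at an unadjusted p under 0.05 (background for any pair 4.8%). In the bin from 82.0 to 82.5 Mb Ed was higher, with RPM ratios of 9.62 and 20.7 in DN and 7.11 and 2.08 in B, against 0.0927 to 3.94 from the other viewpoints. In the bin from 101.5 to 102.0 Mb Ed was lower, at 0.30 and 0.0042 in DN and 0.0032 and 0.166 in B, and the other viewpoints reached 0.217 to 1.36. Averaged over the samples, Ed was also lower in the bins at 117.5, 121.5 and 125.0 Mb. Single samples departed from this. At 125.0 Mb DN replicate 2 had 2.10 from Ed and 1.39 from INT2, and at 121.5 Mb DN replicate 1 had 0.402 from Ed and 0.381 from TEA. The limma adjusted p of these 5 bins ran from 0.00787 to 0.0401.

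These 5 calls went with few captured fragments and, at 82.0 Mb, with a pair of strong ones, and the part of depth in them was not tested. From Ed the 4 samples captured 7, 5, 9 and 12 of the 111 listed fragments in the bin at 82.0 Mb, and 3, 1, 2 and 10 of 97 in the bin at 101.5 Mb. By captured fragments 0 of 137 bins passed the F test (0% of all bins), with 25 at an unadjusted p under 0.05 in limma and a smallest adjusted p of 0.0526. With each fragment capped at the 95th percentile of its library 0 passed as well, beside 32 of all 4808, with 20 at an unadjusted p under 0.05. Leaving out 1 sample at a time left 0 bins without DN replicate 1, 3 without DN replicate 2, 3 without B replicate 1 and 1 without B replicate 2, beside 32, 109, 42 and 78 of all 4808.

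The strong signal at 82.0 Mb came from 2 neighbouring fragments. chr14:82093850-82097994 had 724 RPM in DN replicate 1, 1335 RPM in DN replicate 2, 595 RPM in B replicate 1 and 138 RPM in B replicate 2 from Ed. From TEA it had 131 RPM in B replicate 1 and was listed in no other library. Its neighbour across 1 HindIII site, chr14:82098001-82102329, had the same value in each of the 4 Ed libraries, so the pair read alike and was seen in all 4 samples from this viewpoint. The pair was otherwise listed only in B replicate 1 from TEA (131 and 67.3 RPM) and, for the second fragment, in B replicate 1 from INT2 (10.1 RPM). On the side as a whole, 43 of 1892 neighbouring pairs with at least 10 reads on both fragments (2.27%), counted over the libraries, had equal read numbers, against 2.54% on the other autosomes.

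The strongest fragment of the side stood in a single library. chr14:80970102-80976337 had 14332 RPM, or 46254 reads, in DN replicate 2 from Ed, 16.4 RPM in DN replicate 1 from INT1 and under 1 RPM in the 2 other libraries that listed it. It made up 33.1% of the side's reads in that library. Without the highest fragment of each library the RPM ratio of DN replicate 2 from Ed was 1.43 in place of 2.14, and the mean DN minus B difference over viewpoints was 0.21 in place of 0.28 on the log2 scale. In the other 15 libraries the highest fragment took 0.231% to 3.19% of the side's reads. DN replicate 2 from Ed also held the highest values of chr14:57129219-57134415 in the first bin (1906 RPM, 67.7 RPM in the next library) and of chr14:71063566-71064480 (1952 RPM, 20.2 RPM in the next).

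The fourth question was how the telomere side compared with the centromere side at the same distance. Over the 90 bins on each side with centres 5 to 50 Mb from the viewpoints, the RPM ratio on the telomere side was 1.16 in DN replicate 1, 1.69 in DN replicate 2, 1.17 in B replicate 1 and 1.15 in B replicate 2. On the centromere side it was 1.50, 1.62, 1.36 and 1.35. The telomere side was lower in 3 of 4 samples, and DN replicate 2 went the other way. The mean telomere over centromere ratio was 0.877 (log2 -0.19 ± 0.18, SD, n = 4; exact sign-flip test, two-sided, p = 0.25, smallest possible 0.125). By captured fragments it was 0.948 (p = 0.25, same exact test). The telomere side had 109 listed fragments per bin and the centromere side 105.

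By captured fragments the sides differed most from 10 to 20 Mb of the windows compared. There the captured ratio on the telomere side was 1.10, 1.34, 1.23 and 1.21 in DN replicates 1 and 2 and B replicates 1 and 2, against 1.42, 1.51, 1.41 and 1.40 on the centromere side. The telomere side was lower in 4 of 4 samples, at 0.846 of the centromere side (exact sign-flip test, two-sided, p = 0.125, the smallest possible), and higher in 1 of 16 libraries. In the window before, from 5 to 10 Mb, the ratio was 1.06, with the telomere side higher in 10 of 16 libraries (p = 0.375, exact). From 20 to 30 Mb it was 1.04, with the telomere side higher in 3 of 4 samples and in 10 of 16 libraries (p = 0.375, exact). From 30 to 40 Mb the telomere side was lower in 4 of 4 samples at 0.927 (p = 0.125, exact), and from 40 to 50 Mb the ratio was 0.937 (p = 0.375, exact). By RPM the order of the windows was another, with 0.986 from 5 to 10 Mb, 0.792 from 10 to 20 Mb, 1.15 from 20 to 30 Mb, 0.715 from 30 to 40 Mb and 0.777 from 40 to 50 Mb. By captured fragments the telomere over centromere ratio was higher in both DN samples than in both B samples from 20 to 30 Mb (1.06 and 1.14 against 1.02 and 0.953), and lower from 30 to 40 Mb (0.870 and 0.902 against 0.972 and 0.968). With 2 samples against 2 the exact permutation test cannot go below p = 0.333, the value of both windows, so these orders could not pass a test.

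**Figure D5:**
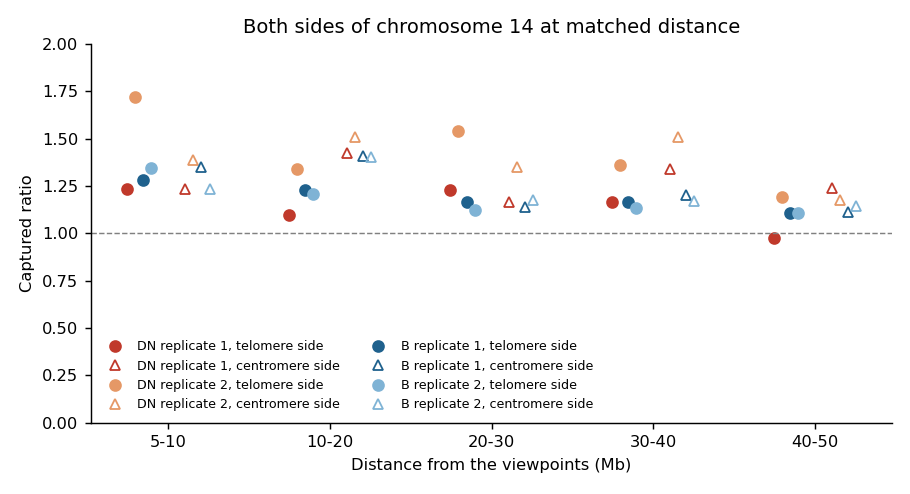
Captured fragments over the mean of the other autosomes (vertical axis, a ratio with no unit) in windows of distance from the viewpoints (horizontal axis, Mb) for the telomere side (filled circles) and the centromere side (open triangles); each point is 1 sample averaged over 4 viewpoints. From 10 to 20 Mb the telomere side lies at 1.10 to 1.34 and the centromere side at 1.40 to 1.51.

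The contacts behind these densities were mostly private to a library. Of the 14606 fragments, 6200 (42.4%) were captured in 1 of 16 libraries, against 46.4% on the other autosomes, and 253 (1.73%) in 8 or more, against 1.52%. In all 4 samples, from any viewpoint, 1028 (7.04%) were captured, against 6.09%. Both DN samples and no B sample captured 406 (2.78%, against 2.26%), and both B samples and no DN sample captured 1385 (9.48%, against 10.02%). The B samples had more captured fragments, so these counts are not a comparison of contact strength.

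One fragment, chr14:101430903-101437188, was captured in all 16 libraries, against 12 such fragments on the other autosomes. From Ed it had 219 RPM in DN replicate 1, 47.7 RPM in DN replicate 2, 151 RPM in B replicate 1 and 39.1 RPM in B replicate 2. From TEA it had 0.491, 1.201, 71.7 and 14.3 RPM, and from INT1 2.39, 73.4, 0.973 and 0.419 RPM. From INT2 it was between 0.268 and 1.57 RPM. Presence in every library thus went with levels from 0.268 to 219 RPM. B was higher than DN from TEA, DN was higher than B from INT1, and the cell types overlapped from INT2 and Ed. The fragment lies in the bin before 101.5 Mb, and not in a bin that was called.

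Longer fragments were captured more often. Side fragments of up to 1 kb were captured in 1.75 libraries on average, those of 1 to 2 kb in 1.93, those of 2 to 4 kb in 2.18, those of 4 to 8 kb in 2.54 and those over 8 kb in 3.00. On the other autosomes the same classes had 1.73, 1.79, 2.04, 2.36 and 2.74, so each class was captured slightly more often on the side. The length classes held similar shares of the fragments, with 16.6% up to 1 kb on the side and 16% elsewhere, and 10.1% and 10.98% over 8 kb.

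Some fragments had the same values as another fragment. Of 2192 side fragments that were listed in at least 4 libraries with at least 20 reads in all, 120 (5.47%) had values equal to those of another fragment in all 16 libraries, and for 113 of them that other fragment was on another chromosome. On the other autosomes the share was 10.3%. Such fragments took 0.348% to 3.07% of the side's RPM in a library. Among the 253 side fragments captured in 8 or more libraries 26 (10.3%) were of this kind, and whether their reads belong to the side was not tested. Near the end of the arm, chr14:124199619-124210570 and chr14:124271769-124282464 were captured in 14 libraries each and had equal values in 9 of these. This pair did not count as equal-valued and was kept. With the fragments equal in all 16 libraries left out, DN minus B over the whole side was 0.29 by RPM on the log2 scale, against 0.28 with them.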

How the data were processed

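Per the labels' protocols, crosslinked chromatin was cut with HindIII and ligated, and the DNA was then cut with DpnII, ligated again and amplified from 4 viewpoints. The submitters' processing notes name CASAVA, Bowtie and mm9, without versions. The deposited files give RPM per listed fragment, a normalization done by the authors, and per the file headers fragments were padded by 40 bp. Of the values in a library 99.9988% to 100% equalled a whole number of reads within 0.01 read, which gave the mapped totals and read numbers. In DN replicate 2 from TEA the value of 1 read lies too close to the rounding step to tell counting from rounding, so its read numbers are less certain and no count test used TEA. The tools were R 4.3.3, limma 3.58.1, edgeR 4.0.16 and Python 3.11.15. The authors' 8 files of means were not used.

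A fragment not listed in a library was taken as 0. Bins of 500 kb with at least 20 listed fragments, on chromosome 14 beyond 1 Mb of the viewpoints, were tested on log2(ratio + 0.1), which understates changes of low bins; limma used a mean-variance trend, and adjusted p is Benjamini-Hochberg over the 4808 bins, with a threshold of 0.05. The 4 viewpoints of a sample were averaged on the log2 scale first. Side totals, slopes and the comparison of both sides used exact permutation or sign-flip tests, two-sided. PCR reads here have no molecular identifiers, so a read is not a molecule. The procedures were tested on simulated data. Named bins were the 5 highest and 5 lowest ratios, calls with both DN samples on 1 side of both B samples (0 here), the smallest p, the 5 smallest F test p and both end bins. Runs, gaps, bands and single fragments were described after their values were seen. The members and lists were chosen with earlier results of these data known. Alternatives were other pseudocounts, filters, scalings, bin sizes, variance models, caps, edgeR on recovered reads of INT1, INT2 and Ed, and samples left out. Added after seeing the data were ratios per listed fragment, fragments with 3 or more reads, equal-valued fragments left out, and the highest fragment of each library left out.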

Additional observations from a re-analysis of the deposited data

How the results depend on the processing

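Of 94 alternative values of the main results, 86 kept their direction or count, 4 moved and 4 reversed, and of 56 values with 1 sample left out 44, 11 and 1 did. Scaling to chromosome 14 beyond 1 Mb reversed DN minus B on the side to -0.042 over viewpoints, -0.10 for TEA, -0.11 for INT1 and -0.071 for INT2, while Ed kept its sign at 0.11. With other measures, caps and scalings to the autosomes it stayed between 0.12 and 0.54 over viewpoints. Leaving out 1 sample gave 0.04 to 0.52 over viewpoints. The slope difference, -0.08 with all samples, was then between -0.17 (without DN replicate 1) and 0.0049 (without DN replicate 2). Leaving out 1 sample gave 0 to 14 called bins by RPM and 0 to 21 by captured fragments, single viewpoints 0 to 10 (TEA), 0 to 12 (INT1), 0 to 6 (INT2) and 0 to 13 (Ed), and the comparison of viewpoints 0 to 3, all by limma with Benjamini-Hochberg adjustment. The highest of these counts for DN against B all came from the fits without DN replicate 1, which leave 1 DN sample. Those fits also called many bins over all autosomes, so the counts are no result about the side. The comparison of viewpoints gave 0 bins with captured fragments and 0 with capped fragments, beside 0 and 32 of all 4808, against 5, beside 206. The captured comparison of DN and B gave 1 bin of 69 with 1 Mb bins, beside 15 of all 2412, against 0. The cause of these changes was not tested, apart from the fewer samples.

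With the replicate number as a block (replicate block), 1 bin was called by captured fragments (smallest limma adjusted p 0.0264, beside 16 of all 4808) and 0 by RPM (8 at an unadjusted p under 0.05, beside 2 called of all 4808), as also for each viewpoint alone. The numbers do not pair the samples: same-numbered DN and B samples come from different mice, and their deviations correlated at 0.04 by RPM and 0.07 by captured fragments over the side's bins. The fewest reads were 1220738, in DN replicate 1 from Ed, and the fewest captured fragments 738, in DN replicate 2 from Ed. A bin from Ed often rested on under 10 fragments, which limits what single bins can show.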
